A study of Mus musculus with 8 samples.

Results

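Cells at day 5 (D5) of reprogramming with the OySyNyK factors were set against induced pluripotent stem cells (iPSC) by their 5-hydroxymethylcytosine (5hmC) peaks, to describe what was still to be gained and lost after D5. The peaks were all 70592 of the D5 list and all 54938 of the iPSC list, 125530 of the 684512 peaks in the 8 lists of the study. A D5 peak was called shared when it overlapped an iPSC peak by at least 1 bp and D5-specific when it did not, and iPSC peaks were classed likewise. The other lists used here came from mouse embryonic fibroblasts (MEF), the starting cells, from OySyNyK cells at D1 and D3, and from cells reprogrammed with OSNK at D1, D3 and D5. OSNK is known as the factor set Oct4, Sox2, Nanog and Klf4. In OySyNyK all of these but Klf4 carry a transactivation domain of the coactivator YAP. By its title, the iPSC sample was also made with OySyNyK. Per the labels' protocols the fibroblasts were OG2-MEFs, which are known to carry a GFP reporter driven by the Oct4 promoter, vitamin C and leukemia inhibitory factor were added to the medium for iPSC generation, and iPSC were kept on mitomycin C-treated MEF feeder cells. 5hmC of feeder cells and of iPSC in the iPSC library cannot be told apart.

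5hmC is made from 5-methylcytosine by the TET enzymes, and it is known both as an intermediate of DNA demethylation and as a lasting mark at active genes and enhancers. Reprogramming to pluripotency is known to need methylated regulatory sites of pluripotency genes to be opened and the fibroblast programme to be shut down, and TET1 and TET2 take part in the former. In the assay, DNA fragments with 5hmC were labelled chemically through a glucose carrying an azide, captured with biotin and streptavidin, and sequenced. A peak is a stretch where captured reads piled up.

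Every group was 1 library, so no test over samples could be made and no p-value is given. Intervals on shares are exact (Clopper-Pearson) 95% intervals and cover counting error only. The number of reads per library is unknown. The iPSC list was the shortest of the 8, with a median score of 71.0 against 75.8 at D5, where the score is the authors' value for each peak and rises as the caller's p-value falls. A peak missing from a list therefore need not mean missing 5hmC. The labelled cell types were not checked against marker genes, because no annotation of the lists' mouse assembly was used, and fewer cells with a mark and less of it per cell cannot be told apart.

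Most D5 peaks had no iPSC counterpart, and most iPSC peaks had no D5 counterpart. Of the D5 peaks, 49494 were D5-specific, which is 70.1% (95% interval 69.8 to 70.5), leaving 21098 shared ones. In the iPSC list 33585 peaks were iPSC-specific, which is 61.1% (95% interval 60.7 to 61.5), and 21353 were shared. In sequence, D5-specific peaks covered 36.4 Mb and iPSC-specific peaks 22.8 Mb. The bases under peaks of both lists came to 15.3 Mb, which is 26.5% of the D5 cover, 37.2% of the iPSC cover and 18.3% of the bases under either. When each list was cut to its 54938 best-scoring peaks, the length of the iPSC list, 66.9% of the D5 peaks were D5-specific and 66.3% of the iPSC peaks were iPSC-specific. Near-equal shares in both directions follow here from the construction, since the lists were equally long and overlaps were almost all 1 to 1.

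The shares were higher than those between successive days of the same method. With equal numbers of peaks, 39.0% of the OySyNyK D1 peaks had no D3 peak and 39.1% of the D3 peaks had no D5 peak, against the 66.9% of D5 peaks without an iPSC peak. In the other direction, 38.4% of the D5 peaks had no D3 peak. From OSNK D5 the corresponding shares were 77.5% of the OSNK peaks and 76.9% of the iPSC peaks. Both comparisons with iPSC use the same iPSC list. In the full lists, 47.0% of the OySyNyK D3 peaks had no D5 peak and 29.7% of the D5 peaks had no D3 peak. The interval between D5 cells and established iPSC in days is not given in the labels.

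Shared peaks were the stronger and wider ones in either list. Within the D5 list, the median score was 94.7 for shared and 70.9 for D5-specific peaks, and the median width was 844 bp and 655 bp. Within the iPSC list, shared peaks had a median score of 81.1 and a median width of 716 bp, and iPSC-specific peaks 66.7 and 602 bp. Peaks of 2 kb or more made up 5.36% of the shared D5 peaks and 0.737% of the D5-specific ones, and 3.31% and 0.542% of the shared and the iPSC-specific iPSC peaks. The widths of the classes overlapped widely. The middle 50% of D5-specific peaks measured 527 to 843 bp and that of shared D5 peaks 656 to 1179 bp. Width and score went together, and within each of 4 equal groups of peaks by score, shared peaks still had the higher median width. In the group of highest scores it was 1124 bp against 928 bp at D5 and 1027 bp against 890 bp in iPSC, and in the group of lowest scores it was 639 bp against 551 bp and 528 bp against 498 bp. The 1-bp rule favours wide peaks, so greater width of shared peaks is in part built into the classes.

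When each list was divided by score into 10 groups of equal size, the overlapped share was higher in each group than in the one below it. At D5 it was 17.9% in the lowest group, whose median score was 51.8, and 59.0% in the highest, whose median score was 216. In the iPSC list it was 26.6% and 67.5%. Across 10 such groups by width it went from 11.7% to 58.7% at D5 and from 24.6% to 63.2% in iPSC. A wider peak meets the 1-bp rule more easily, so the trend with width is in part built into the classes. A large part of the specific peaks lay close to the lowest deposited score of 50. Scores under 60 were held by 29.0% of the D5-specific and 34.7% of the iPSC-specific peaks, against 15.8% and 21.1% of the shared peaks of these lists. Strong peaks were specific less often but not rarely. Of the 21636 D5 peaks with a score of at least 100, 11821 had no iPSC peak of any score, which is 54.6% (95% interval 54.0 to 55.3), and of the 12974 such iPSC peaks 5493 had no D5 peak of any score, which is 42.3% (95% interval 41.5 to 43.2). At a score of at least 200 these were 1554 of 4339 D5 peaks, or 35.8%, and 476 of 2147 iPSC peaks, or 22.2%. The shares of D5 and of iPSC peaks in this paragraph also depend on the length of the other list. D5 peaks covered 57.6 Mb and iPSC peaks 41.1 Mb.

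**Figure D1:**
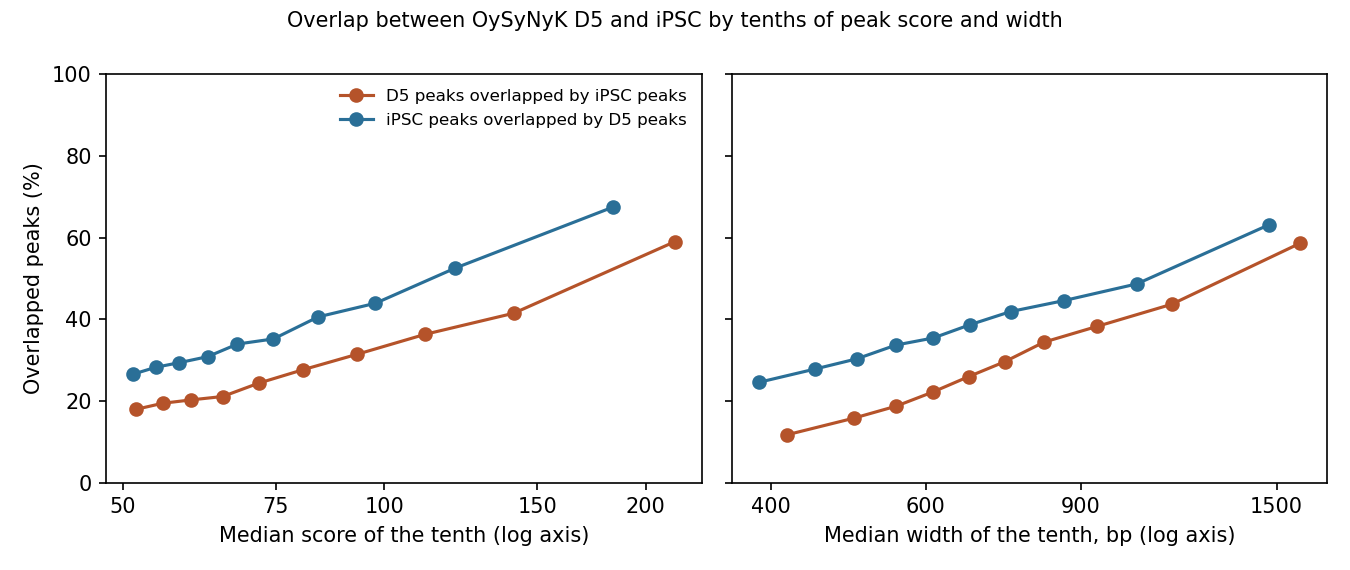
Share of peaks overlapped by the other list (vertical axis, %) against the median score (left) or median width in bp (right) of each of 10 equal groups of the list, both on log axes, for OySyNyK D5 peaks and iPSC peaks. Overlap of D5 peaks goes from 17.9% to 59.0% with score and from 11.7% to 58.7% with width, and in both panels the iPSC line runs above the D5 line. These are the full lists, and the longer D5 list gives iPSC peaks more chance of overlap.

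Where peaks were shared they sat at nearly the same place. The 21975 overlapping pairs shared a median of 618 bp, which is 77.4% of the D5 peak and 93.4% of the iPSC peak at the median, and their midpoints lay a median of 109 bp apart. The D5 peak was the wider of the pair in 66.3% of pairs. Few shared D5 peaks were split, with 843 overlapping 2 or more iPSC peaks, and 603 iPSC peaks overlapped 2 or more D5 peaks. Scores of a pair were only loosely related, with Spearman's rho of 0.19 for score and 0.53 for width across the 21975 pairs. These points share their libraries and a lower score limit, and pairs are not replicates. At the edge of the 1-bp rule, 319 pairs overlapped by less than 50 bp, and 1682 D5-specific and 1532 iPSC-specific peaks lay within 250 bp of a peak of the other list without touching it.

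Beyond that edge, specific peaks were mostly separate from the peaks of the other list, though most lay within 10 kb of one. The median gap from an iPSC-specific peak to the nearest D5 peak was 6328 bp, with 15.0% within 1 kb and 61.7% within 10 kb. From a D5-specific peak to the nearest iPSC peak it was 7371 bp, with 12.2% within 1 kb and 57.7% within 10 kb. The genome was also divided into windows of 100 kb. Of the 14376 windows that held the midpoint of a specific peak, 8760 held both kinds, 3316 held D5-specific peaks only and 2300 held iPSC-specific peaks only. Windows with both kinds contained 85.8% of the iPSC-specific and 79.0% of the D5-specific peaks. The number of windows that would hold both kinds under independent placement was not computed. These counts therefore do not show that gain and loss lay together. Over the 14584 windows with any midpoint, D5-specific counts had a Spearman's rho of 0.50 with shared counts and 0.20 with iPSC-specific counts. The windows share both libraries and are not replicates.

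D5-specific and iPSC-specific peaks differed in their past, where presence or absence at D5 is itself part of how the classes were defined. D5-specific peaks were largely older than D5: 33.6% overlapped a MEF peak (95% interval 33.2 to 34.0), 29.3% had no MEF peak but a D1 peak, 15.2% were first seen at D3, and 22.0% were in none of these lists (95% interval 21.6 to 22.3). Among the 16615 D5-specific peaks with a MEF peak, 13356 were also present at D1 and D3, which is 80.4%, so that they were listed in the fibroblasts and on each day and not in iPSC. Presence in MEF, D1 and D3 alike was no trait of the D5-specific class. It held for 27.0% of the D5-specific and 32.0% of the shared D5 peaks. A further 12444 were absent in MEF and present at D1, D3 and D5, which is 25.1% of the D5-specific peaks, against 21.0% of the shared D5 peaks. The shared D5 peaks had a like make-up, with 40.1% in MEF, 22.8% first at D1, 16.7% first at D3 and 20.5% in none. An earlier past was thus a trait of the D5 list as a whole. Of all 70592 D5 peaks, 25069 had a MEF peak and 15186 were in none of these lists. For comparison with the other method, 60.6% of the D5-specific and 62.6% of the shared D5 peaks overlapped an OSNK D5 peak.

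iPSC-specific peaks were mostly seen in no earlier list. Of them, 26583 overlapped no peak of MEF, D1 or D3, which is 79.2% (95% interval 78.7 to 79.6). When the 3 OSNK lists were added, 24206 were still found in no other list, which is 72.1% (95% interval 71.6 to 72.6), and the remaining 2377 were in at least 1 OSNK list. Of all 54938 iPSC peaks, 31055 were in none of MEF, D1 and D3, and of the shared iPSC peaks 20.9% were. Shared peaks are by rule those with a D5 peak, and most D5 peaks also had a D1 or D3 peak. The contrast between the classes therefore follows in part from the class rule. Peaks that had been present and were missing at D5 made up a smaller group. MEF peaks underlay 3589 iPSC-specific peaks, which is 10.7% (95% interval 10.4 to 11.0), and 1513 of these, or 42.2%, were missing on every listed OySyNyK day. Peaks of D1 or D3 were found at 5489 iPSC-specific peaks, which is 16.3% (95% interval 15.9 to 16.7). Their scores differed little by past. Median scores over the 8 combinations of MEF, D1 and D3 lay between 64.3 and 72.6, and the highest belonged to peaks with a MEF peak and no D1 or D3 peak. In the D5 list, in both classes, the past and the score did go together. D5-specific peaks had a median of 60.5 where in none of the earlier lists and 89.6 where in all 3. For shared D5 peaks these medians were 66.2 and 139.

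**Figure D2:**
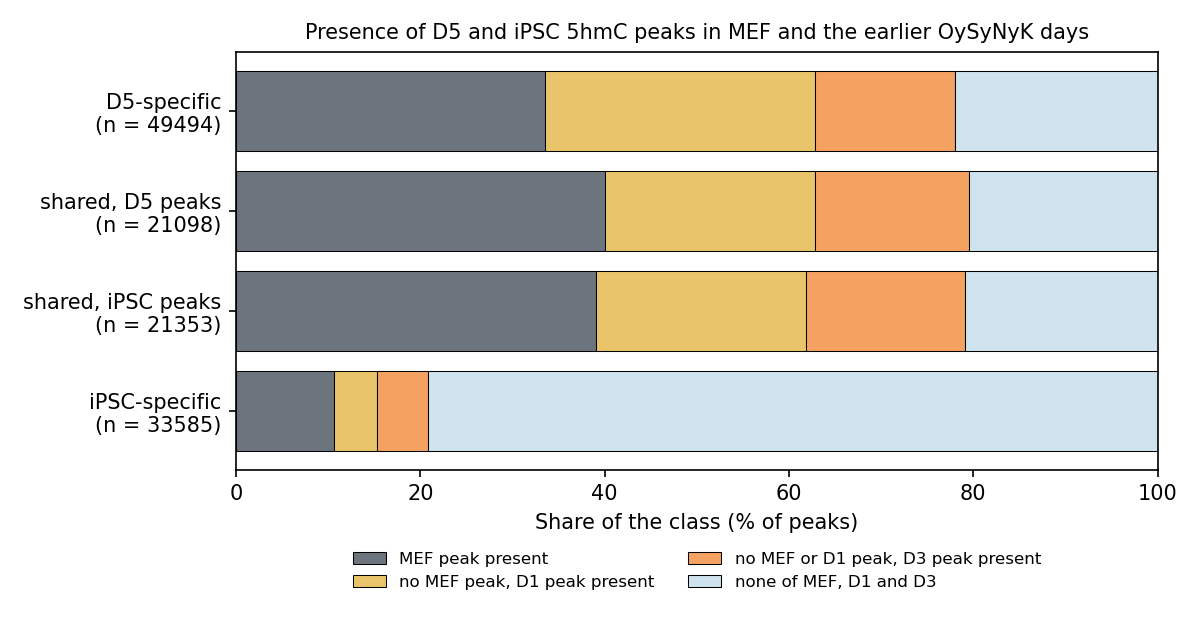
Share of each class of peaks (horizontal axis, % of the class) by the first of the lists MEF, OySyNyK D1 and OySyNyK D3 that held an overlapping peak. The pale segment for peaks in none of them is 79.2% of iPSC-specific peaks and 20.5% to 22.0% of the other classes.

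D5 peaks were kept in iPSC to different extents according to the first list that held the site. Sites with a MEF peak were kept in 33.7% of 25069 cases (95% interval 33.1 to 34.3). Sites first seen at D1 were kept least, in 24.9% of 19306 cases (95% interval 24.3 to 25.5). Sites first seen at D3 were kept in 31.8% of 11031 cases (95% interval 31.0 to 32.7), and sites seen at D5 without any earlier peak in 28.4% of 15186 cases (95% interval 27.7 to 29.2). The last group also had the lowest median score, 61.8 against 92.4 for sites with a MEF peak, so the shares were also taken within 4 equal groups of D5 peaks by score, with borders at 59.96, 75.8 and 111. In each group the order was the same, with sites first seen at D1 lowest, then sites with a MEF peak, then sites first seen at D3, and sites seen only from D5 highest. Among the lowest scores these shares were 11.8%, 19.1%, 20.3% and 22.0%. Among the highest they were 43.0%, 48.8%, 52.5% and 56.1%, where the last rests on 606 peaks and has an interval of 52.1 to 60.1. The intervals of sites first seen at D3 and of those seen only from D5 overlapped in every group but the third. Among the lowest scores, the intervals of sites with a MEF peak and of sites first seen at D3 overlapped too. Within these groups by score, the intervals of sites first seen at D1 overlapped no other. All these intervals cover counting error of peaks only and hold no spread between libraries. Sites first seen at D1 were the least kept also under each of the 6 alternatives that were tried, but not always by a clear margin. With peaks merged within 1 kb, they were kept in 26.9% (95% interval 26.2 to 27.6). Sites seen only from D5 were then kept in 27.9% (27.1 to 28.7), and these intervals overlapped. The D1 list was the longest of the 3 OySyNyK lists, with 100951 peaks, and with all lists cut to 54938 peaks 29.1% of the sites first seen at D1 were kept, against 36.1% with a MEF peak, 34.3% first seen at D3 and 31.4% seen only from D5. The order of the other groups was not stable. With peaks scoring 100 or more in every list, 20.8% of the sites with a MEF peak were kept, 16.6% of those first seen at D1, 21.7% of those first seen at D3 and 22.4% of those seen only from D5. Counted from the iPSC side, peaks first seen at D1 were the most often present at D5, at 75.9% of 6389 iPSC peaks, against 69.9% of 11937 with a MEF peak, 66.3% of 5557 first seen at D3 and 14.4% of 31055 in none of these lists. This result was chosen after the data had been seen.

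**Figure D3:**
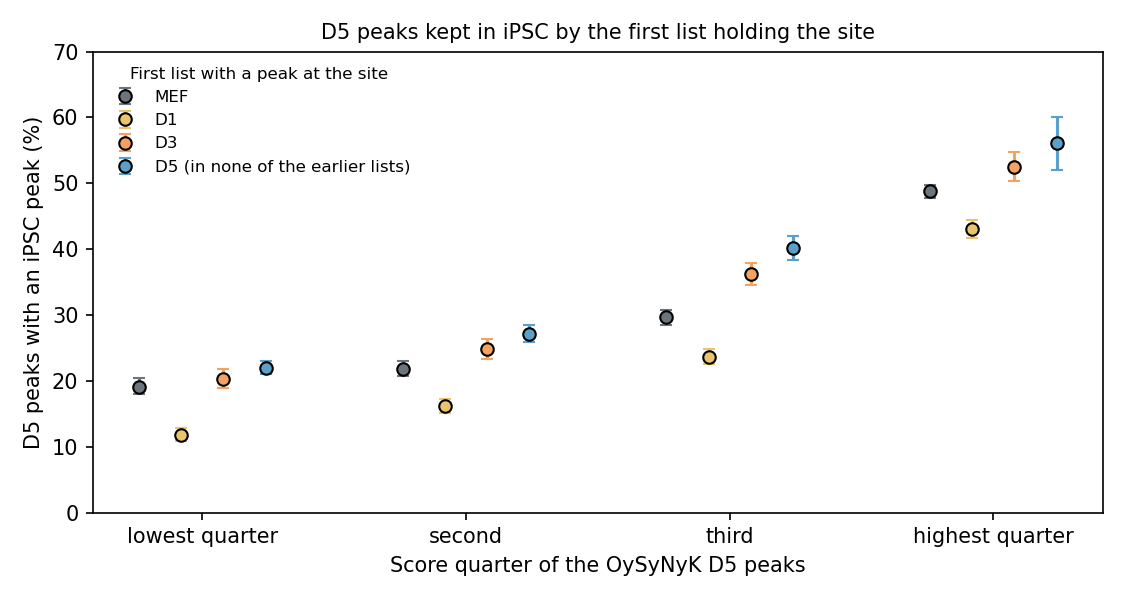
Share of OySyNyK D5 peaks with an iPSC peak (vertical axis, %) in each of 4 equal groups of the D5 list by score, by the first list with a peak at the site; bars are exact 95% intervals for counting error. Sites first seen at D1 are lowest in every group, from 11.8% to 43.0%, and sites seen only from D5 are highest, from 22.0% to 56.1%.

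The past was also counted for the strongest specific peaks. Among the 100 highest-scoring D5-specific peaks, with scores of at least 378, all 100 had a peak at D1, at D3 and at OSNK D5, 79 had one in MEF and 76 had one in all 6 other lists. Over all D5-specific peaks these shares were 59.5% at D1, 69.0% at D3, 60.6% at OSNK D5, 33.6% in MEF and 20.3% in all 6. Among the 100 highest-scoring iPSC-specific peaks, with scores of at least 294, 73 had a peak in none of the 6 lists, 20 had one in MEF, and 15 of these 20 had one in MEF and in no intermediate. Over all iPSC-specific peaks, 72.1% were in none of the 6 lists, so the 73 was near the share of the class, and 10.7% had a MEF peak. The score selects the peaks here only within their own list. D5-specific peaks in every earlier list had a higher median score than those in none, so choosing by score favoured peaks with a past. The iPSC-specific peaks are by rule absent at D5. These counts are therefore no separate support for a difference in past.

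Positions are those of the mouse assembly the lists use, counted from 1, and were not assigned to genes. The highest-scoring iPSC-specific peak, on chromosome 1 from 75471225 to 75473539, scored 916 in iPSC and 52.2 in MEF and was in no intermediate list. The next, on chromosome 7 from 53048454 to 53051050, scored 849 in iPSC and 107 in MEF and was likewise in no intermediate list. Both were fibroblast sites close to or moderately above the score limit that were unlisted on all days of both methods. Peaks on chromosome 10 from 79797038 to 79799616, with a score of 588, and on chromosome 17 from 36019089 to 36020481, with a score of 548, were in iPSC alone of all 8 lists. The fifth, on chromosome 4 from 141032906 to 141035807, scored 512 in iPSC, 91.7 in MEF and 58.2 at D3. Of the 5 widest iPSC-specific peaks, 3 were in the iPSC list alone, with widths of 3955 bp on chromosome 8, 3506 bp on chromosome 15 and 3309 bp on chromosome 4. The widest, 4337 bp on chromosome 10 from 80540633 to 80544969, also had a D3 peak with a score of 175, and that of 3407 bp on chromosome 3 a D3 peak with a score of 58.1.

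All 5 highest-scoring D5-specific peaks were present in each of the other 6 lists and not in iPSC. On chromosome 1 from 82283451 to 82286507 the score was 792 at D5, and 507, 486 and 631 in MEF and at D1 and D3. OSNK scores there were 763, 1380 and 751 at D1, D3 and D5. A pair lay on chromosome 14, from 120732835 to 120735048 with a D5 score of 784 and from 120777489 to 120779363 with a D5 score of 688. On chromosome 9, the peak from 118860376 to 118863842 scored 675 at D5, after 196 in MEF and 1065 and 716 at D1 and D3. The fifth lay near the end of X from 166415826 to 166422276, scored 665 at D5 and was, at 6451 bp, also the widest D5-specific peak. The other 4 of the 5 widest were 3701 to 4273 bp wide, on chromosomes 5, 19, 5 and 8, and all 4 were in the 6 other lists too. Scores of different libraries depend on depth and are given to show presence, not change.

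The shared pairs with the highest scores came mainly from 1 place. On chromosome 17, 4 of the 5 lay between 35634593 and 35652333, where D5 scores were 1323 to 3100 and iPSC scores 1734 to 3100. The value 3100 was the highest in both lists and also in those of OySyNyK D3, OSNK D1 and OSNK D5. Whether it is a cap of the caller was not tested, and scores at this value do not compare libraries. OG2 cells are known to carry Oct4 promoter sequence in a transgene, and whether this place holds sequence with extra copies in these cells, which would bear on its scores, was not tested. The 3 D5 peaks there were present in all 8 lists, with MEF scores of 714 to 1330. The fifth pair, on chromosome 17 from 35148168 to 35153958, scored 905 at D5 and 1431 in iPSC, with 677 in MEF and 326 to 506 in the other lists.

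Cover, the share of a 100-kb window lying under peaks, was compared in the 14600 windows with a peak in either list. It was higher in iPSC in 5582 and lower in 9014, where the lists' total cover was 41.1 Mb in iPSC and 57.6 Mb at D5. With equal numbers of peaks it was higher in 6641 windows and lower in 7460. At a difference of at least 10 percentage points, 49 windows were higher in iPSC, which is 0.336% of those compared, and 441 were lower, which is 3.02%. Chromosome 12 held 20 of the 49 higher windows, or 40.8%, and 707 of the 14600 windows, or 4.84%. Chromosomes 13 and 16 together held none of the 49 and 68 of the 441 lower ones, or 15.4%, and 8.10% of all windows.

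The 5 windows with the largest excess at D5 had broad cover on all 3 days and the least in iPSC. On chromosome 14 from 120700001 to 120800000, cover was 36.0% in MEF, 40.0% at D1, 39.2% at D3, 39.3% at D5 and 4.75% in iPSC. It held 32 D5-specific peaks, 8 shared ones and no iPSC-specific peak, and 2 of the highest-scoring D5-specific peaks above. On chromosome 1 from 92900001 to 93000000 and on chromosome 10 from 119800001 to 119900000, D5 cover was 36.6% and 40.1%, below the D1 values of 52.9% and 56.0%, and iPSC cover was 5.22% and 8.86%. The other two had more cover at D5 than in MEF. On chromosome 1 from 191600001 to 191700000, cover went from 27.2% in MEF to 47.7% at D5 and was 16.8% in iPSC. On chromosome 9 from 121200001 to 121300000, it went from 16.7% to 36.1% and was 5.41% in iPSC. In both of these windows iPSC cover was below that of MEF as well. OSNK D5 cover lay between 38.5% and 51.2% in all 5.

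The 5 windows with the largest excess in iPSC had D5 cover of 1.66% to 14.1%, and 3 of them lay on chromosome 12. On chromosome 12 from 111800001 to 111900000, cover went from 2.25% in MEF to 6.08%, 9.12% and 14.1% over the days and was 33.4% in iPSC. From 77700001 to 77800000 on the same chromosome it was 7.35% at D5 and 26.8% in iPSC, with 26 iPSC-specific peaks against 2 D5-specific ones. In the third on chromosome 12, from 107100001 to 107200000, it was 3.12% and 19.9%. On chromosome 4 from 125300001 to 125400000, cover was 3.22% in MEF, 1.03% at D1, 1.25% at D3, 1.66% at D5 and 20.0% in iPSC. It held 19 iPSC-specific peaks and 2 shared D5 peaks. On chromosome 9 from 119400001 to 119500000, cover was 7.84% in MEF, between 2.03% and 3.55% at D1 to D5 and 21.7% in iPSC. No D5-specific peak lay in the windows on chromosomes 4 and 9. Counting only peaks that scored 100 or more, the differences on chromosomes 4 and 9 were 5.81 and 10.4 percentage points instead of 18.3 and 18.2, and those from 77700001 and 107100001 on chromosome 12 were 11.7 and 8.75 instead of 19.4 and 16.8.

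**Figure D4:**
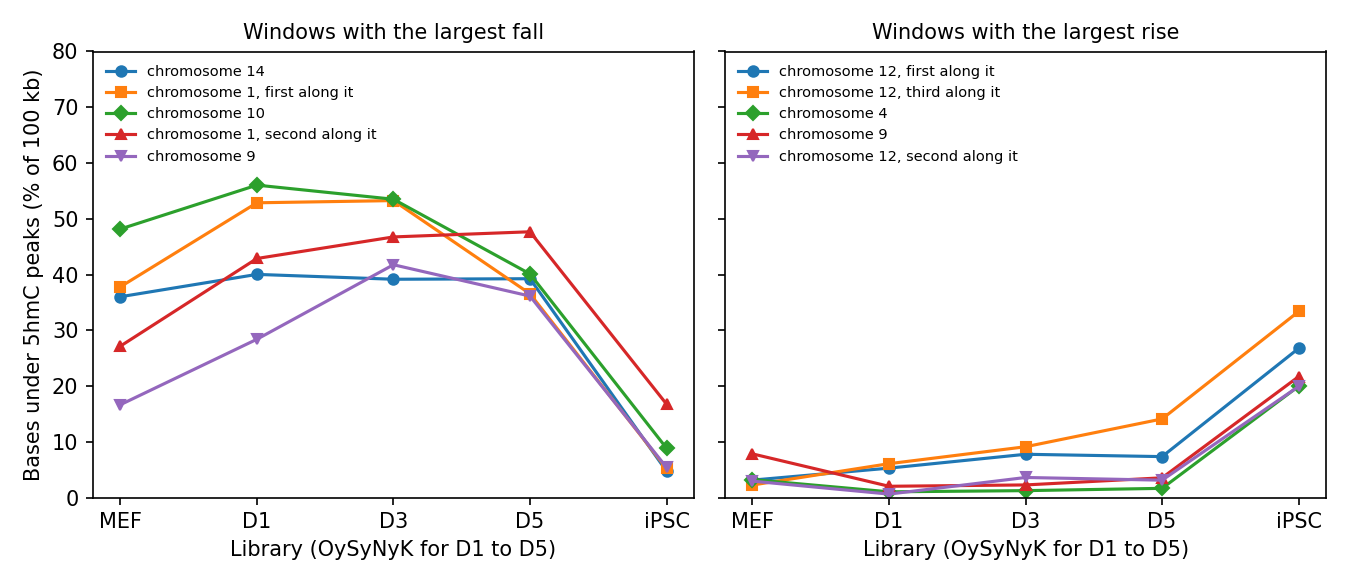
Bases under 5hmC peaks as a percentage of 100 kb (vertical axis) in MEF, OySyNyK D1, D3 and D5 and iPSC, for the 5 windows with the largest excess at D5 (left) and the 5 with the largest excess in iPSC (right), 1 library a point. Windows on the left have 36.1% to 47.7% at D5 and 4.75% to 16.8% in iPSC, and those on the right 1.66% to 14.1% and 19.9% to 33.4%.

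Numbers of iPSC-specific and D5-specific peaks were uneven between chromosomes, in lists of 1 library each. Over the genome there were 0.679 iPSC-specific peaks for each D5-specific peak in the full lists. On the 15 autosomes left when chromosomes 12, 13, 16 and 18 were set apart, this ratio lay between 0.522, on chromosome 6, and 0.807, on chromosome 7. Chromosome 12 had 3001 iPSC-specific against 1641 D5-specific peaks, a ratio of 1.83, and in the full lists no other chromosome had a ratio above 1. Chromosomes 16 and 13 were at the other end, with 319 against 2138 and 508 against 2899, ratios of 0.149 and 0.175, and chromosome 18 had 695 against 2162, a ratio of 0.321. X had 74 against 194. The level of these ratios followed the list lengths. With equal numbers of peaks the ratio was 0.990 over the genome and 0.760 to 1.19 on the 15 autosomes, 8 of which were then above 1. Chromosome 12 was at 2.78, and chromosomes 16, 13 and 18 at 0.219, 0.251 and 0.450, still outside the range of the 15. The 15 were defined by leaving these chromosomes out, so a place outside their range is no separate support. The part of D5 peaks without an iPSC peak was 53.7% on chromosome 12 (95% interval 51.9 to 55.5), 89.2% on chromosome 13 (88.1 to 90.2), 87.0% on chromosome 16 (85.6 to 88.3) and 83.7% on chromosome 18 (82.3 to 85.1), and 65.1% to 80.2% on the 15 other autosomes.

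The pattern held in strong peaks as well as weak ones. In the group of D5 peaks with the highest scores, 81.0% of the peaks on chromosome 13 and 76.8% of those on chromosome 16 had no iPSC peak, against 50.1% on the 15 other autosomes and 32.8% on chromosome 12. In the group with the lowest scores these were 93.7%, 93.0%, 80.2% and 68.3%. The iPSC-specific share of iPSC peaks differed less between chromosomes, at 67.7% on chromosome 12, 59.1% on chromosome 13, 49.8% on chromosome 16 and 55.9% to 68.0% on the 15 other autosomes. On chromosomes 13 and 16, iPSC peaks of any class numbered 860 and 640, against 3250 and 2457 at D5. Between MEF and D5 these chromosomes did not stand out. D5 peaks per MEF peak were 1.04 on chromosome 12, 0.954 on 13, 0.988 on 16 and 1.02 on 18. On the 15 other autosomes this ratio lay between 0.816, on chromosome 6, and 1.30, on chromosome 17. The departure was thus seen in the iPSC list.

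Along chromosome 12 the excess ran over most of its length. The number of iPSC peaks per D5 peak was 0.778 over the genome. On chromosome 12 it was 0.702 and 0.857 in the first 2 blocks of 10 Mb, and above 1 in the other 9 of the 11 blocks with at least 20 D5 peaks, up to 1.95. On chromosome 13 it lay between 0.154 and 0.354 in all 12 such blocks, and on chromosome 16 between 0.0982 and 0.300 in all 9. Chromosome 18 was less even, with 0.206 to 0.877 over its 9 blocks. With equal numbers of peaks, chromosome 12 had 4435 iPSC peaks and 2348 D5 peaks, and chromosome 13 had 860 and 2500. Whether these chromosomes differ in 5hmC or in the number of reads obtained from them cannot be told apart in peak lists of 1 iPSC library.

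**Figure D5:**
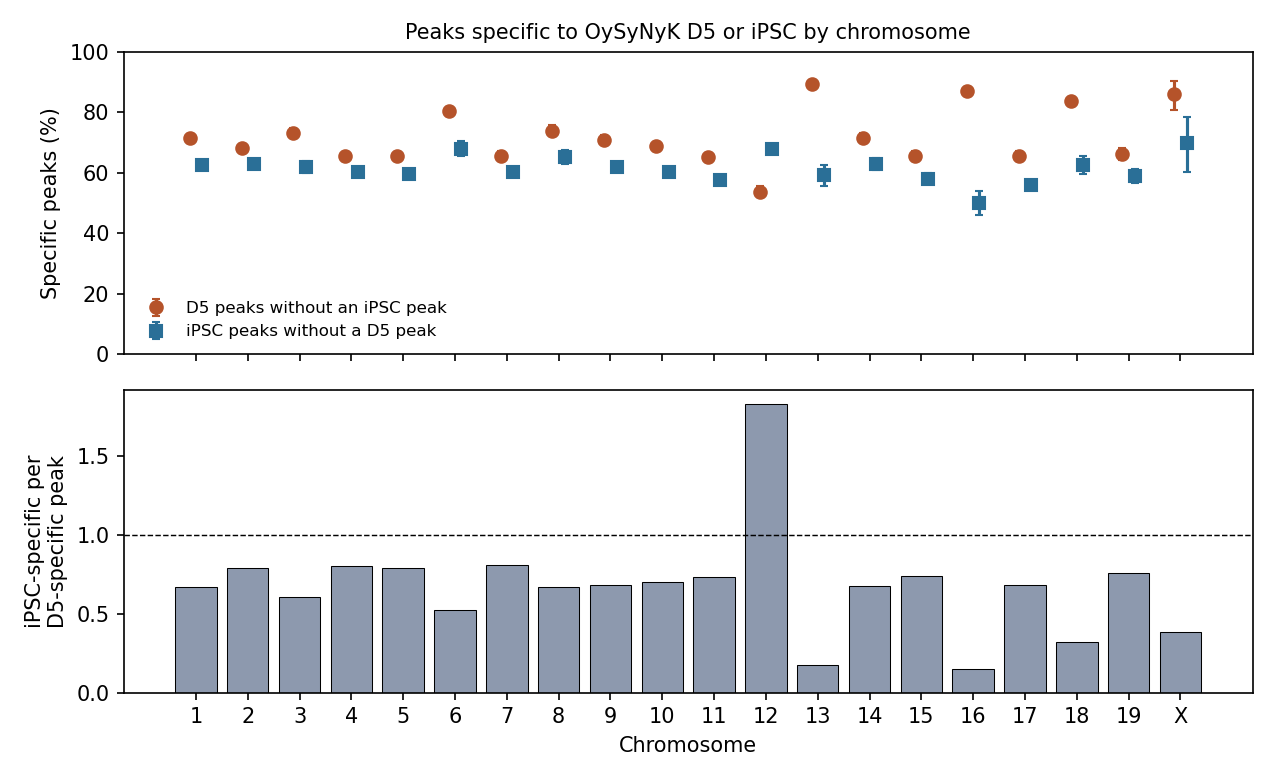
Top, share of D5 peaks without an iPSC peak and of iPSC peaks without a D5 peak (%) on each chromosome, with exact 95% intervals for counting error; bottom, number of iPSC-specific peaks per D5-specific peak, with a dashed line at 1. In these full lists chromosome 12 stands at 1.83 and chromosomes 13 and 16 at 0.175 and 0.149.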

How the data were processed

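5hmC peaks of 8 mouse libraries were used as the authors deposited them, 1 list per library. Per the submitters' processing notes the tools were Bowtie and MACS. Their versions and settings, and whether a control was used, were not given in the sources used here. The score of each peak is as deposited, and MACS is known to compute it as minus 10 times the log10 of the p-value, so that the lowest deposited score of 50 would be a p-value of 1e-05. These notes name human builds, hg18 and NCBI36. The lists hold mouse chromosomes 1 to 19 and X, with peaks beyond the last GRCm38 gene on 10 of 20 chromosomes. From general knowledge they match mm9, for which no annotation or genome was used. The planned gene lists were therefore left out, and no sequence is given.

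Overlaps were computed with Python 3.11.15, numpy 2.4.6 and pandas 2.3.3, gave the same counts as bedtools 2.31.1 for all 64 ordered pairs of lists, and were tested on simulated data. Intervals came from scipy 1.17.1 and figures from matplotlib 3.10.9. Presence means an overlap of at least 1 bp. The peaks and windows named in the text were the top 5 of each class by score, by width, by the lower score of a pair, and by change in cover of 100 kb. Alternatives were overlaps covering 50% or more of a peak, peaks scoring 100 or more in every list, equal numbers of peaks, peaks within 1 kb merged, 500-bp peaks round each midpoint, and leaving out chromosomes 12, 13, 16, 18 and X. The members and lists were chosen with earlier results of these data known.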

Additional observations from a re-analysis of the deposited data

How the results depend on the processing

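Shares are given in the order D5-specific share of D5 peaks, iPSC-specific share of iPSC peaks, MEF share of D5-specific peaks, share of D5-specific peaks in none of MEF, D1 and D3, the same for iPSC-specific peaks, and D1 or D3 share of iPSC-specific peaks. They moved by more than their counting interval under these settings: with an overlap of 50% of the peak, to 74.3%, 63.7%, 31.2%, 23.6%, 81.5% and 14.0%; with a score of at least 100, to 80.04%, 66.4%, 35.7%, 17.7%, 81.4% and 14.6%. With 500-bp peaks, the first 5 were 72.7%, 64.8%, 28.4%, 24.0% and 79.95%. With equal numbers, they were 66.9% and 66.3%, then 29.7%, 84.8% and 10.2% for the last 3. Merging within 1 kb gave 68.1%, 60.2% and, for D5-specific peaks in none, 22.6%. Leaving out chromosomes 12, 13, 16, 18 and X gave 68.6% and 60.7% for the first 2. A score of at least 100 by its construction moved the median scores to 135 for D5-specific, 166 for shared D5, 127 for iPSC-specific and 149 for shared iPSC peaks. It moved the median widths to 923 bp for iPSC-specific and 1101 bp for shared iPSC peaks, and the share of iPSC-specific peaks on chromosomes 13 and 16 to 0.627% and 0.499%, from 1.51% and 0.9498%. Windows higher in iPSC by at least 10 points numbered 16 with a score of at least 100, 76 with equal numbers, 74 with merging, 2 with 500-bp peaks and 29 without the 5 chromosomes. Windows lower by as much numbered 170 with a score of at least 100 and 46 with 500-bp peaks, in which cover follows peak number alone. With a score of at least 100, 3114 windows were higher and 5993 lower. The other 86 recomputed values of these results stayed within their interval or 1.5 times. Of single windows and shares kept by first list, 36 of 64 moved. None of the single windows named in the text changed direction where it was recomputed, and these had been chosen for their large differences. The direction of other single windows was not followed across settings. Sites with a MEF peak, the most kept in the full lists, were behind sites first seen at D3 with an overlap of 50% of the peak (28.1% and 28.4%) and when only scores of 100 or more were used. The cause of these moves was not tested. No paired analysis was possible because every group has 1 library. Depth is unknown, and the low end of each list lies at the score limit of 50.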
